A study of Mus musculus with 18 samples.

Results

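*Ddr1*, *Cdh5*, *Pltp*, *Upb1*, *Atp1b1*, *Ptms*, *Adam19* and *Lrrc16a* are 8 genes grouped here as non-immune, out of 19919 genes listed in at least 1 of the deposited tables. They were chosen because their FPKM (read fragments normalised to transcript length and sequencing depth) was much lower in every *Trim33* KO library of common lymphoid progenitors (CLPs) than in any WT library, so that difference is described here and not tested. The libraries came from multipotent progenitors (MPPs), CD115- common dendritic cell (DC) progenitors (CDPs) and CLPs sorted from the bone marrow of C57BL/6 mice aged 6 to 8 weeks. WT mice were *Trim33* fl/fl, and KO mice were *Trim33* fl/fl with Cre-ERT2, a systemic recombinase that tamoxifen switches on. Tamoxifen was injected daily for 5 days (2 mg a day) according to the methods, with analysis 7 days later. The study describes both genotypes of these progenitors as tamoxifen-treated. Each genotype had 3 libraries in each of the 3 populations, 18 in all. TRIM33 is a nuclear protein that binds chromatin and acts on transcription, and the study asked how its loss changes the DC potential of these progenitors.

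The 8 proteins have unrelated roles. DDR1 is a receptor tyrosine kinase activated by collagen, and VE-cadherin (*Cdh5*) is the adhesion protein of endothelial junctions. PLTP moves phospholipids between lipoproteins, UPB1 completes the breakdown of uracil and thymine, and ATP1B1 is the beta 1 subunit of the sodium pump. Parathymosin (*Ptms*) is a small acidic nuclear protein, ADAM19 is a membrane metalloprotease, and CARMIL1 (*Lrrc16a*) binds the protein that caps actin filaments. The protein-coding genes lie on 8 different chromosomes of GRCm38.p6 in RefSeq: *Ddr1* at chr17:35681567-35704741, *Cdh5* at chr8:104101613-104144504, *Pltp* at chr2:164839518-164857708, *Upb1* at chr10:75406911-75441679, *Atp1b1* at chr1:164437099-164458355, *Ptms* at chr6:124913675-124917946, *Adam19* at chr11:46054502-46147347 and *Lrrc16a*, listed there as *Carmil1*, at chr13:24012481-24280802.

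*Trim33* itself was 10.42, 10.12 and 8.78 FPKM in WT MPPs and 9.71, 11.66 and 4.80 FPKM in MPPs labelled KO. In CD115- CDPs it was 14.30, 15.23 and 8.27 FPKM against 9.64, 8.28 and 4.03 FPKM, and in CLPs it was 12.36, 7.01 and 8.86 FPKM against 7.52, 5.6 and 7.66 FPKM. The genotypes overlapped in all 3 populations, but within each same-numbered pair of libraries *Trim33* was lower in KO in CDPs (log2 difference -0.74, adjusted p = 0.528, and 0.0258 with the replicate number as a block) and in CLPs (-0.37, 0.255 and 0.0727). The deletion removes exons 2 to 4, and a gene-level FPKM counts the remaining exons too, so it checks the labels only weakly. The depth, estimated from the steps between low FPKM values, was 19.2 to 21.2 M reads per library. Of the genes behind the gates, *Flt3* was 292 and 321 FPKM and *Il7r* 43.2 and 39.8 FPKM in WT and KO CLPs. *Itgax* encodes CD11c, which the gate for CLPs and CDPs excludes at the surface, and its mRNA was 61.8 FPKM in WT CLPs and 6.25 FPKM in KO CLPs.

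In WT CLPs all 8 genes were expressed, and in KO CLPs 6 of them were left with 0.109% to 2.57% of the WT mean. *Ddr1* was 11.40, 14.30 and 11.08 FPKM in the WT libraries and 0.01, 0.03 and 0 FPKM in the KO libraries. *Pltp* was 17.69, 14.45 and 12.89 FPKM in WT and 0.06, 0 and 0.03 FPKM in KO. Both genes stood at or near 0 in every KO library. *Adam19* was 7.48, 5.68 and 4.70 FPKM in WT CLPs and 0.03, 0.05 and 0.05 FPKM in KO CLPs. *Upb1* was 12.35, 14.21 and 11.84 FPKM in WT and 0.12, 0.14 and 0.09 FPKM in KO. The KO mean of the protease was 0.728% of its WT mean, and that of the uracil-degrading enzyme was 0.912%. *Cdh5* was 15.89, 19.53 and 20.12 FPKM in WT CLPs and 0.26, 0.24 and 0.24 FPKM in KO CLPs. *Lrrc16a* was 21.70, 14.88 and 14.32 FPKM in WT and 0.43, 0.40 and 0.48 FPKM in KO. These 2 genes kept a low level that varied little, 1.33% of the WT mean for *Cdh5* and 2.57% for *Lrrc16a*.

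The remaining pair, which had the highest levels in WT, kept more. *Atp1b1* was 96.60, 80.45 and 87.31 FPKM in WT CLPs and 9.93, 9.20 and 10.43 FPKM in KO CLPs, which left 11.2%. *Ptms* was 225.25, 248.39 and 223.57 FPKM in WT and 29.75, 34.79 and 34.38 FPKM in KO, which left 14.2%. No gene of the 8 had overlapping genotypes in CLPs, and every KO library was below every WT library for 18.6% of all genes tested there. On the log2(FPKM + 1) scale, which understates the change of genes at low levels, the KO minus WT differences ran from -3.96 for *Cdh5* to -2.72 for *Adam19*, with a median of -3.62, while the median over all 12339 genes tested in CLPs was 0.01. Ordered by this difference, the 8 genes stood between rank 8 and rank 44 from the lowest. A call here means an adjusted p of at most 0.05 and a log2 difference of at least 1 in size, and 2.84% of all genes tested in CLPs were called lower. Because the FPKM came from bulk libraries, fewer cells that express a gene and less RNA per cell cannot be told apart.

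**Figure D1:**
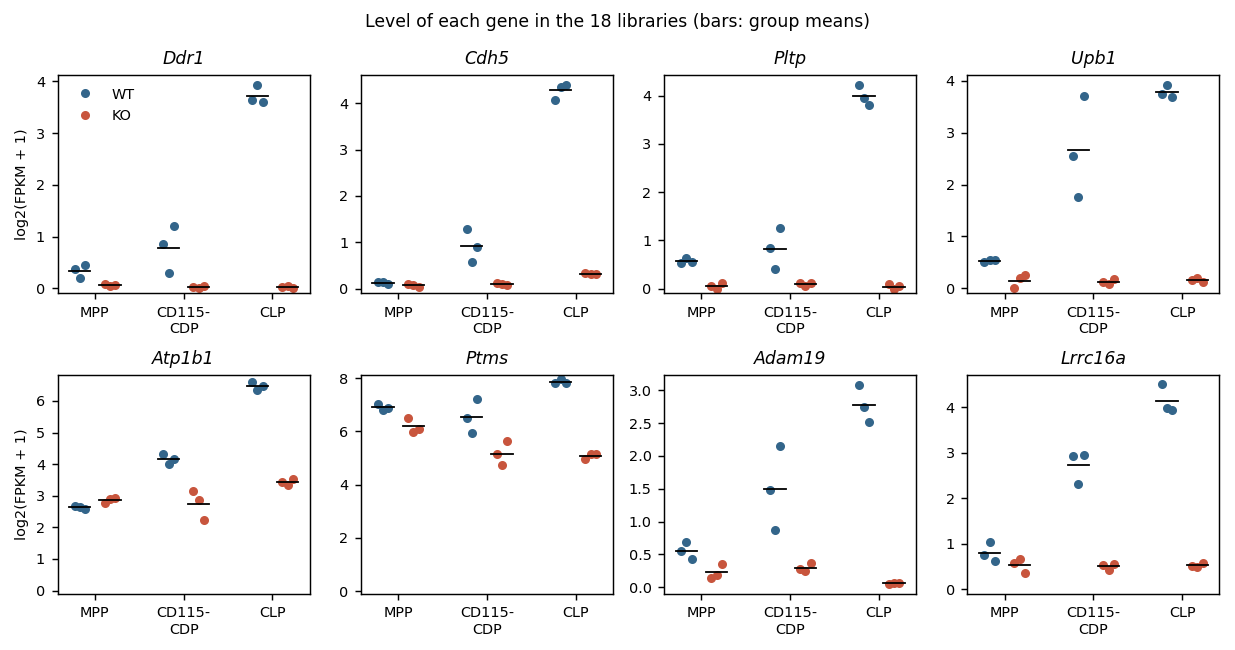
Level of each of the 8 genes as log2(FPKM + 1) (y axis, linear in log2 units) in MPPs, CD115- CDPs and CLPs (x axis), with 1 point per library, WT in blue, KO in red and bars at the mean of 3 libraries. All WT CLP points lie far above the KO CLP points, the WT CD115- CDP points are spread more widely, and *Atp1b1* in MPPs is the 1 case with KO points above WT points.

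How far the KO level can be read depends on depth. For the 5 genes with a single transcript of known length, 1 read was worth between 0.013 FPKM for *Cdh5* and 0.045 FPKM for *Ptms* at the median depth. The FPKM of *Pltp* thus correspond to about 598, 501 and 458 reads in WT CLPs and about 2, 0 and 1 reads in KO CLPs, a share of 0.194% with an exact 95% interval of 0.04% to 0.569%. For *Cdh5* the estimate was 4326 reads in the WT and 57 in the KO libraries together, or 1.33% (1.0% to 1.73%), and for *Upb1* 2264 and 20 reads, or 0.891% (0.543% to 1.38%). These intervals cover counting error only and rest on estimated reads. *Ddr1*, *Adam19* and *Lrrc16a* have several transcripts, and no reads were estimated for them.

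The levels differed between WT populations as well. The WT CLP mean was the highest of the 3 WT populations for all 8 genes, a pattern that shares the WT CLP libraries with the choice of genes and is given without a test. The ratio of WT CLPs to WT MPPs was 191.5 for *Cdh5*, 45.97 for *Ddr1*, 31.06 for *Pltp*, 29.09 for *Upb1*, 22.33 for *Lrrc16a*, 16.91 for *Atp1b1* and 12.67 for *Adam19*. Parathymosin stood apart, since its ratio was only 1.963. Every WT CLP library was above every WT CD115- CDP library for 7 genes, and for *Upb1*, whose CDP replicate 3 reached 12.09 FPKM, the 2 groups overlapped. In KO CLPs 6 genes were below every WT MPP library. The exceptions were *Cdh5*, at 0.247 ± 0.0115 FPKM (SD, n = 3) against 0.0967 ± 0.0231 FPKM in WT MPPs, and *Atp1b1*, at 9.85 ± 0.619 FPKM against 5.21 ± 0.191 FPKM.

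Between WT MPPs and WT CD115- CDPs, libraries that played no part in the choice, 3 of the 8 genes were called higher in CDPs, where 1.47% of all 12504 genes tested were. *Lrrc16a* was 0.68, 1.06 and 0.54 FPKM in WT MPPs and 6.63, 3.98 and 6.75 FPKM in WT CDPs, a log2 difference of 1.93 (SE 0.22, limma adjusted p = 0.00326). *Atp1b1* was 5.39, 5.23 and 5.01 FPKM in WT MPPs and 18.78, 15.18 and 17.11 FPKM in WT CDPs, a difference of 1.53 (SE 0.12, adjusted p = 0.00109). *Upb1* was 0.42, 0.45 and 0.45 FPKM in WT MPPs and 4.88, 2.38 and 12.09 FPKM in WT CDPs, a difference of 2.15 (SE 0.46, adjusted p = 0.0283). *Upb1* was under the required 0.5 FPKM in every WT MPP library and was tested only through the CDP libraries, and *Cdh5*, *Ddr1*, *Pltp* and *Adam19* also had WT MPP means under it. None of the 3 genes called overlapped between the populations, although *Upb1* missed the threshold without a filter on low levels (adjusted p = 0.0655), without WT CDP replicate 1 (0.0908) and without any 1 of the WT MPP libraries (0.103 to 0.114), and both *Upb1* (0.123) and *Lrrc16a* (0.0814) missed it with the replicate block and no filter. *Cdh5* had a difference of 0.79 (adjusted p = 0.0392), under the fold threshold. The other 4 did not pass: *Adam19* differed by 0.95 (0.0944, but 0.0285 without WT CDP replicate 2), *Ddr1* by 0.45 (0.238), *Pltp* by 0.26 (0.432) and *Ptms* by -0.34 (0.454).

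In CD115- CDPs every KO library was below every WT library for all 8 genes, which held for 8.47% of all 19710 genes listed and 10.6% of the 12229 tested there. *Lrrc16a* was 6.63, 3.98 and 6.75 FPKM in WT and 0.45, 0.33 and 0.46 FPKM in KO, a log2 difference of -2.24 (SE 0.22, limma adjusted p = 0.0401). It was the 1 gene of the 8 that was called lower, where 0.0654% of all genes tested were. *Lrrc16a* met the required mean of 0.5 FPKM over the 6 libraries only through the WT libraries, as did *Upb1*, *Cdh5* and *Adam19*, so the number of calls is no support of its own. *Lrrc16a* lost the call without a filter (adjusted p = 0.0867), with a filter at 2 FPKM (0.0513) and without any 1 of the 6 libraries (0.0526 to 0.346). The WT and KO libraries share replicate numbers 1 to 3 in the labels. Deviations of same-numbered CDP libraries correlated at 0.437 to 0.790, and those of differently numbered ones at up to 0.663. With the number as a block 5 of the 6 genes fitted were called lower, where 1.46% of all genes tested were. The filter was the same, so this number is no support of its own either. *Lrrc16a* then had an adjusted p of 0.00294. With the block and no filter, an alternative added after the data were seen, 0 of the 8 were called by limma, with adjusted p of 0.152 to 0.192 for these 5.

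The block added 4 genes. *Upb1* was 4.88, 2.38 and 12.09 FPKM in WT CDPs and 0.09, 0.06 and 0.13 FPKM in KO CDPs, a difference of -2.55 (SE 0.47, adjusted p = 0.22, and 0.0155 with the block). *Atp1b1* was 18.78, 15.18 and 17.11 FPKM in WT and 7.92, 6.33 and 3.68 FPKM in KO, a difference of -1.41 (adjusted p = 0.225, and 0.0154 with the block). The enzyme all but disappeared in KO CDPs, while the pump subunit kept 35.1% of its WT mean. *Ptms* was 90.74, 60.84 and 145.78 FPKM in WT CDPs and 34.15, 25.63 and 48.21 FPKM in KO CDPs, a difference of -1.39 (adjusted p = 0.337, and 0.00345 with the block). *Adam19* was 1.78, 0.83 and 3.46 FPKM in WT and 0.21, 0.18 and 0.29 FPKM in KO, a difference of -1.21 (adjusted p = 0.348, and 0.0352 with the block). In both genes the WT library with the highest level shares its number with the highest KO library, and the lowest likewise. *Cdh5* was 1.44, 0.49 and 0.88 FPKM in WT CDPs and 0.09, 0.08 and 0.06 FPKM in KO CDPs, a difference of -0.82, under the fold threshold. *Ddr1*, at 0.80, 0.23 and 1.31 FPKM in WT and 0.01, 0 and 0.03 FPKM in KO, and *Pltp*, at 0.78, 0.32 and 1.39 FPKM in WT and 0.08, 0.03 and 0.08 FPKM in KO, were under the mean of 0.5 FPKM required for the test.

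**Figure D2:**
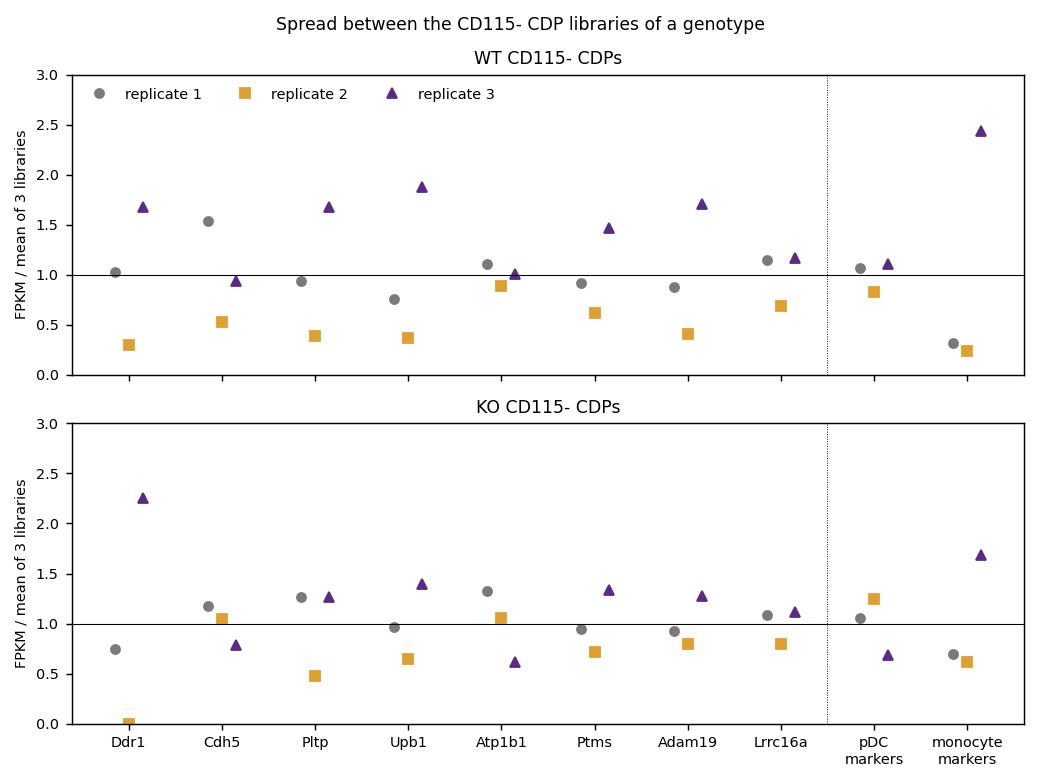
FPKM of each gene, and the summed FPKM of plasmacytoid DC (pDC) and monocyte marker lists, in each CD115- CDP library (y axis) divided by the mean of the 3 libraries of that genotype, with replicate number 1 as circles, 2 as squares and 3 as triangles. In WT, replicate 2 is lowest for all 8 genes and replicate 3 highest for 6, while in KO, replicate 2 is lowest for 6 and replicate 3 highest for 5.

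The spread between CDP libraries had a common pattern. The median coefficient of variation of the 8 genes was 57.8% in WT CDPs and 13.4% in WT CLPs. WT CDP replicate 2 was the lowest for all 8 genes and replicate 3 the highest for 6. The summed FPKM of 12 pDC markers was 1254, 975 and 1303 in the same WT libraries, and that of 10 monocyte and macrophage markers was 190.7, 140.8 and 1444. In WT, replicate 2 was thus lowest in both sums and replicate 3 highest, by far in the monocyte sum. In KO CDPs replicate 2 was lowest for 6 of the 8 genes and replicate 3 highest for 5. The KO pDC sum ran the other way, at 523.8, 617.4 and 340.9, while the KO monocyte sum was 118, 103.5 and 285.2. The part of these cells in the levels of the 8 genes was not tested.

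In MPPs none of the 8 genes was called lower by limma, where 1.32% of all 12372 genes tested were (163, but 548 without KO MPP replicate 3 and 43 to 47 without any 1 WT library), and 3 of the 8 reached the mean required for the test, of which 1 had an unadjusted p under 0.05. *Ptms* was 129.24, 109.54 and 116.40 FPKM in WT and 90.43, 61.95 and 67.40 FPKM in MPPs labelled KO, without overlap and with a log2 difference of -0.70 (SE 0.15, adjusted p = 0.06). *Atp1b1* went the other way, with 5.39, 5.23 and 5.01 FPKM in WT and 5.81, 6.50 and 6.57 FPKM in KO, a difference of 0.23 (95% interval -0.04 to 0.51, adjusted p = 0.259). *Lrrc16a* overlapped, with 0.68, 1.06 and 0.54 FPKM in WT and 0.50, 0.58 and 0.27 FPKM in KO, a difference of -0.27 (95% interval -0.64 to 0.09, adjusted p = 0.293). The other 5 had a mean under 0.5 FPKM. These 5 and *Lrrc16a* had WT means under 1 FPKM, so on log2(FPKM + 1) they could not fall by the log2 difference of 1 that a call needs. *Pltp* was 0.44, 0.55 and 0.46 FPKM in WT MPPs and 0.03, 0 and 0.08 FPKM in KO MPPs. *Upb1* was 0.42, 0.45 and 0.45 FPKM in WT and 0, 0.14 and 0.19 FPKM in KO. These low levels did not overlap between genotypes, nor did those of *Ddr1* (0.14 to 0.37 FPKM against 0.03 to 0.06 FPKM) and *Adam19* (0.34 to 0.61 FPKM against 0.10 to 0.28 FPKM). *Cdh5* was barely detected in either genotype, at 0.07 to 0.11 FPKM and 0.02 to 0.07 FPKM. In all, every KO library was below every WT library for 5 of the 8 genes, against 18.2% of all 19710 genes listed and 23.3% of those tested, and above for 1, against 5.41% and 6.98%.

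On log2(FPKM + 1) the difference between KO and WT was larger in CDPs than in MPPs for *Lrrc16a*, where the contrast of the 2 log2 differences was -1.96 (SE 0.27, limma adjusted p = 0.0128). It was the 1 gene of the 8 to pass this test in that direction, where 0.097% of all 12370 genes tested did. For *Atp1b1* the contrast was -1.65 (SE 0.29, adjusted p = 0.0502), which passed with the replicate number as a block (adjusted p = 0.0378), where 0.34% of all genes passed in that direction, and without KO CDP replicate 1 (0.0325) or 3 (0.0217). *Lrrc16a* passed with the block too (0.0192). It missed the threshold without WT MPP replicate 1 (0.0703), without WT MPP replicate 3 (0.0655) and with a pseudocount of 0.1 (0.0825). *Upb1* had a contrast of -2.17 (adjusted p = 0.168, but 0.0193 and 0.0222 without WT CDP replicates 2 and 3), *Adam19* of -0.88 (0.484) and *Ptms* of -0.69 (0.628). The remaining 3 genes were under the mean required. *Lrrc16a*, *Upb1* and *Adam19* had WT MPP means under 1 FPKM, so on this scale none could fall by a log2 difference of 1 in MPPs. Their contrasts thus depend in part on that low level. *Upb1* and *Adam19* also met the required mean only through the WT CDP libraries. The share of the WT mean left in MPPs and CDPs was 59.2% and 7.14% for *Lrrc16a*, 25.0% and 1.45% for *Upb1*, and 36.9% and 11.2% for *Adam19*. CLPs were left out of the contrast because they chose the genes.

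**Figure D3:**
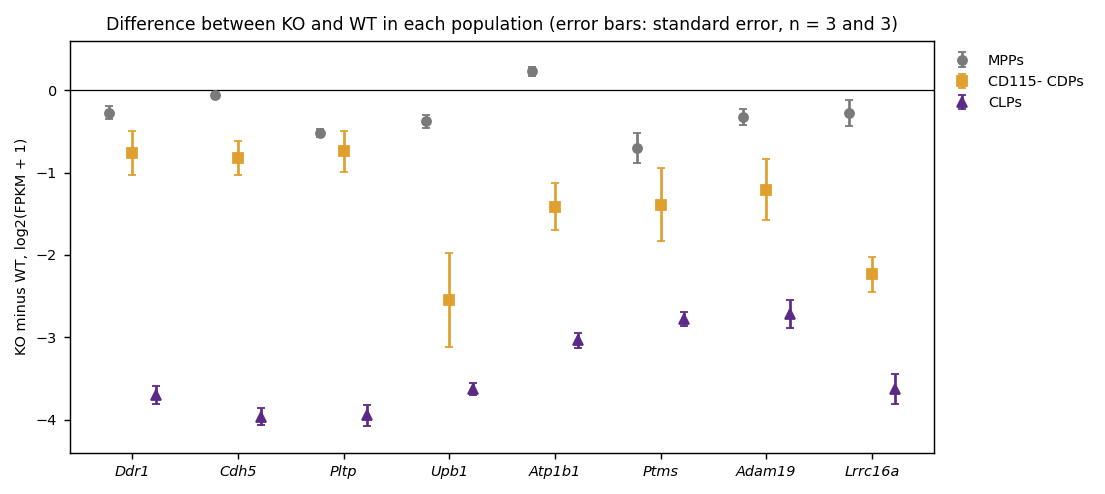
KO minus WT difference of each gene in mean log2(FPKM + 1) (y axis), in MPPs (grey circles), CD115- CDPs (yellow squares) and CLPs (purple triangles), with bars of 1 standard error computed from the SDs of the 3 WT and 3 KO libraries. The CLP values, which chose the genes, lie between -3.96 and -2.72, the CDP values between -2.55 and -0.74, and the MPP values between -0.70 and 0.23.

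Relatives of the 8 proteins were called in both directions. Over 8 lists of 103 relatives and pathway partners, 57 genes were tested in CLPs, of which 3 were called lower (5.26%, against 2.84% of all genes) and 2 higher (3.51%, against 0.673%), with a median log2 difference of -0.03. In CD115- CDPs 0 of 59 were called by limma (10 at an unadjusted p under 0.05; 1 lower and 2 higher called with the replicate block), and in MPPs 3 of 63 were called lower (4.76%, against 1.32%) and 0 higher (21 lower and 5 higher at an unadjusted p under 0.05).

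Among 22 endothelial genes listed beside *Cdh5*, 9 were tested in CLPs and 0 were called lower by limma. At an unadjusted p under 0.05, 5 were higher and 1 was lower, with a median difference over the 9 of 0.30. The lower gene was the junction gene *Pecam1*, which was singled out after its values were seen (76.9 and 49.6 FPKM, log2 difference -0.62, adjusted p = 0.00465, under the fold threshold). *Egfl7*, which encodes a protein secreted by endothelial cells, was called higher, from 103 ± 13.3 to 233 ± 14.8 FPKM (SD, n = 3), a difference of 1.17 (adjusted p = 0.000426). In MPPs 2 of 11 endothelial genes tested were called lower by limma, where 1.32% of all genes tested were. There 8 were lower and 1 was higher at an unadjusted p under 0.05, with a median difference of -0.48. The endothelial receptor gene *Tie1* fell in MPPs from 15.9 to 4.26 FPKM (log2 difference -1.69, adjusted p = 0.00468). The junction gene *Esam* fell from 3.08 to 0.947 FPKM (-1.08, adjusted p = 0.0182). *Tie1* and *Esam* had means under 0.5 FPKM in CLPs, where *Cdh5* was 18.5 FPKM in WT.

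*Ddr2*, the other collagen-activated receptor kinase, was at or below 0.04 FPKM in every library. Of 13 collagen receptors and DDR adaptors, 1 of 7 tested was called lower in CLPs: *Lair1*, an inhibitory collagen receptor of leukocytes, fell from 12.99 to 2.12 FPKM (log2 difference -2.18, adjusted p = 0.000135). Of 13 genes on the sodium pump list, 8 were tested in CLPs, with 2 lower and 1 higher at an unadjusted p under 0.05 by limma. Their median log2 difference was 0.01. The higher gene was the alternative beta subunit *Atp1b3*, which stood on the other side from *Atp1b1*. It was 165 ± 9.25 FPKM in WT CLPs and 312 ± 11.3 FPKM in KO CLPs, a difference of 0.91 (adjusted p = 0.000487), under the fold threshold. WT CDPs had 118 ± 9.82 FPKM of *Atp1b3* and KO CDPs 326 ± 114 FPKM, a difference of 1.41 (adjusted p = 0.173, and 0.02 with the block).

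The upstream enzymes of the UPB1 pathway, *Dpyd* and *Dpys*, were at or below 0.18 FPKM in every library, and of 9 genes of pyrimidine breakdown the 3 tested in MPPs, 3 in CDPs and 2 in CLPs gave 0 calls by limma (1 in CDPs had an unadjusted p under 0.05). Of 17 genes of lipid transfer, 1 of 10 tested rose in CLPs, the lipoprotein lipase gene *Lpl*, from 0.46 to 15.4 FPKM (log2 difference 3.48, adjusted p = 4.0e-06). *Lpl* had a WT mean under the required 0.5 FPKM and was tested only through the KO libraries. Its call, 1 of the 2 higher among the relatives in CLPs, is thus no support of its own. In MPPs 1 gene of lipid transfer fell, *Apoe*, from 32.3 to 6.82 FPKM (-2.11, adjusted p = 0.00449). Of 11 other ADAM genes, 1 of 6 tested fell in CLPs, *Adam11*, from 21.4 to 9.51 FPKM (-1.09, adjusted p = 0.00086). The CARMIL and actin-capping list and the thymosins had 0 calls in every population by limma, with or without the block. At an unadjusted p under 0.05 they had 4 genes in MPPs, 1 in CDPs and 4 in CLPs. *Rltpr*, which encodes CARMIL2, was 74.8 ± 7.14 FPKM in WT CLPs and 94.1 ± 6.43 FPKM in KO CLPs (difference 0.33, adjusted p = 0.0762), and *Lrrc16b*, which encodes CARMIL3, was 0.197 and 0.277 FPKM. *Ptma*, the abundant relative of *Ptms*, was 3428 ± 487 FPKM in WT CLPs and 3180 ± 111 FPKM in KO CLPs (-0.10, adjusted p = 0.731).

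**Figure D4:**
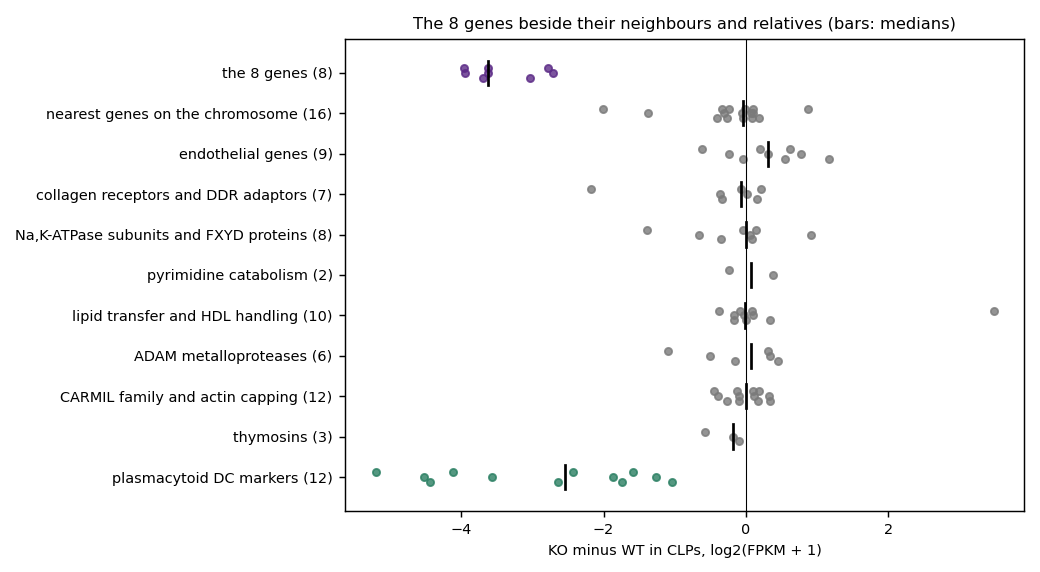
KO minus WT difference in CLPs in log2(FPKM + 1) (x axis) for the 8 genes, their nearest tested neighbours on the chromosome, each list of relatives and the pDC markers (y axis, number of genes in brackets), with 1 point per gene and bars at the medians. The 8 genes, chosen by this difference, lie between -3.96 and -2.72, the 16 neighbours have a median of -0.05, and the 12 pDC markers all lie below 0.

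Because the genes lie on different chromosomes, the nearest tested gene on each side of each of them was examined. Of these 16 neighbours 2 were called lower in CLPs and 0 higher, with a median log2 difference of -0.05. Over all genes tested in CLPs, 2.84% were called lower and 0.673% higher. The nearest tested gene was not always close, with distances from 1241 bases (*Lag3*) to 1316120 bases (*Cdh11*, beside *Cdh5*). *Lag3*, an inhibitory receptor gene that lies 1241 bases from *Ptms* on chromosome 6, fell from 18.2 to 3.87 FPKM (log2 difference -2.0, adjusted p = 0.00019). *Adora2a*, the adenosine receptor gene 72119 bases from *Upb1* on chromosome 10, fell from 14.1 to 4.79 FPKM (-1.38, adjusted p = 0.00131). The neighbours of the other 6 genes were not called, and *Cmah*, beside *Lrrc16a*, had a difference of 0.87 (adjusted p = 0.0165), under the fold threshold. *Ctsa* overlaps *Pltp* and was 70.2 FPKM in WT CLPs and 41.8 FPKM in KO CLPs, and *Nme7* overlaps *Atp1b1* and was 7.85 and 10.2 FPKM. Whether reads were counted by strand is not given in the sources used here, so reads of overlapping genes may not be fully separated.

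RefSeq promoters (GRCm38.p6, from 250 bases before to 50 after the start) were found for 6 of the 8 genes. They differ in CpG dinucleotides. The windows of *Atp1b1* and *Ptms*, the genes that kept the most in KO CLPs, hold 31 and 27 CpGs, against a median of 21 over the genes tested in CLPs. Those of *Pltp* and *Upb1* hold 13 and 8, and the outermost listed starts of *Ddr1* and *Adam19* hold 9 and 5. *Ddr1*, which kept the least in KO CLPs, has another listed start whose window holds 39 CpGs, the most of any window here, and the other starts of *Ddr1* and *Adam19* hold 5 to 11, so CpG number and the level kept do not run in parallel across all listed starts. The 250 bases upstream of the start are shown for the 4 genes with a single listed start, 5′ to 3′ on the strand of the gene and with CpGs in capitals, to show CpG-rich and CpG-poor examples. They lie at chr1:164458356-164458605 on the minus strand (*Atp1b1*), chr6:124917947-124918196 on the minus strand (*Ptms*), chr2:164857709-164857958 on the minus strand (*Pltp*) and chr10:75406661-75406910 on the plus strand (*Upb1*).
Atp1b1: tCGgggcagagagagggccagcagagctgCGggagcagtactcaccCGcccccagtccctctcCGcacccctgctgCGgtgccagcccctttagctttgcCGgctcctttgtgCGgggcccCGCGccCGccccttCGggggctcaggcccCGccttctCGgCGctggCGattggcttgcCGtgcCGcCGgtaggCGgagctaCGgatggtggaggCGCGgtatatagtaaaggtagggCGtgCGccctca
Ptms: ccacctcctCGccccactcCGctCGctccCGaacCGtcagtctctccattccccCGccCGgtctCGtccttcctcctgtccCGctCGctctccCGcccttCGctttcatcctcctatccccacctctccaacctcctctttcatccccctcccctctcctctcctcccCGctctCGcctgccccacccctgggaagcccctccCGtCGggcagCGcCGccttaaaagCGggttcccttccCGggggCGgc
Pltp: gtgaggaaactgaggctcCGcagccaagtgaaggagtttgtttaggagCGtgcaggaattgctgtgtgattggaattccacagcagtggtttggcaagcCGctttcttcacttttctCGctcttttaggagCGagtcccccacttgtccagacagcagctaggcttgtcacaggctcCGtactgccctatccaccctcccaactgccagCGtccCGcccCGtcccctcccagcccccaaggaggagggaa
Upb1: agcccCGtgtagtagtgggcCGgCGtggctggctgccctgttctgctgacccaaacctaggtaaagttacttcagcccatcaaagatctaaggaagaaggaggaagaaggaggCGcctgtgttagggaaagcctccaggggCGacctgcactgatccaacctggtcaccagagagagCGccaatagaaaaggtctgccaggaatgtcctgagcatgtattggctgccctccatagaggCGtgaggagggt

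These stretches hold 24, 21, 9 and 7 CpGs in the order shown. Short motifs were looked for on both strands of the whole windows. GAGGAA, a core of PU.1 sites, was found in 4 of the 6 promoters (*Pltp*, *Ptms*, *Upb1* and *Adam19*) and in 28.3% of all 32851 RefSeq promoters, or 26.8% of those of genes tested in CLPs. GGGCGG, the GC box, was found in 4 (*Atp1b1*, *Pltp*, *Ptms* and *Ddr1*) and in 35.7% of all promoters, or 64.3% of those of genes tested in CLPs. The composite motifs GGAANNGAA and GAAANNGAA were each found in 1, *Ptms* (8.24% and 8.56% of all, GGAANNGAA sharing no letters with the PU.1 core there), TGTGGT and CAGCTG each in *Ddr1* (16.8% and 16.3%), TATAAA in *Pltp* (13.6%), and TGANTCA in 0 of 6 (7.81%). For genes with several starts the outermost was used. A match describes the letters only.

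Across the 18 libraries the 8 genes varied together, having been chosen by a shared fall. Pearson's r between pairs was 0.639 to 0.995 over 28 pairs, with a median of 0.910. Among 12421 genes, the 8 included, the others closest to the mean profile of the 8 were *Gas7* (r = 0.988 over 18 libraries), *Ptprf* (0.987), *Klk1* (0.985), *Tmem221* (0.981) and *Prss30* (0.979). *Ptprf*, a receptor tyrosine phosphatase gene, was 18.3 FPKM in WT CLPs and 0.677 FPKM in KO CLPs. *Klk1*, a kallikrein protease gene that is also on the pDC marker list, was 4.42 FPKM in WT CLPs and was listed at 0 in every KO library of the 3 populations.

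Marker genes of other cells moved in the same libraries, in lists chosen with earlier results of these data known. For comparison, 2.84% of all genes tested in CLPs were called lower and 0.673% higher. Called lower in CDPs were 0.0654% of all genes tested (1.46% with the replicate block), and in MPPs 1.32%. All 12 pDC markers, *Klk1* included, were called lower in KO CLPs, where their summed FPKM was 2357 to 2666 in WT and 515 to 552 in KO, and 1 of 11 tested was called lower in CDPs (8 with the replicate block), with sums of 975 to 1303 and 341 to 617. In MPPs 0 of 11 were called by limma (3 at an unadjusted p under 0.05), and the sums were 271.5 to 282.1 and 229 to 250.3. Of 10 conventional DC markers 3 of 7 tested were called lower in CLPs (sums 177.8 to 206.1 in WT and 112.2 to 182.8 in KO), and of 10 B lineage markers 0 were called lower (1 at an unadjusted p under 0.05) and 1 higher (sums 386.2 to 947.1 and 337.5 to 657.4). Of 10 monocyte and macrophage markers 4 of 7 tested were lower (113 to 183.1 and 67.6 to 106.2), and of 10 erythroid markers 3 of 6 (35.7 to 57.7 and 6.06 to 10.2). Their part in the fall of the 8 genes was not tested. The sum of 10 stromal markers was 12, 243.5 and 303.2 FPKM in the 3 WT CLP libraries and 8.68, 31.6 and 11.8 FPKM in the KO libraries, with 0 called by limma (2 at an unadjusted p under 0.05, 3 called with the block). In the same WT CLP libraries *Cdh5* was 15.89, 19.53 and 20.12 FPKM, in the order of the stromal sum, and *Ddr1* was 11.40, 14.30 and 11.08 FPKM. Replicate 1, which had the low stromal sum, was highest for 4 of the 8 genes and lowest for 1. The coefficients of variation of the 8 genes over the 3 WT CLP libraries were 5.97% to 24.2%. The part of stromal cells in these levels was not tested. The epithelial sum was 8.08 to 11.6 FPKM in WT and 3.94 to 5.0 FPKM in KO CLPs, with 1 of 3 tested genes called lower.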

How the data were processed

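Single-end reads of 50 bases were cleaned by the authors (SOAPnuke 1.5.2), who mapped them with Bowtie2 2.2.5 (HISAT2 2.0.4 is also named, with mm10) and computed the deposited FPKM per gene with RSEM 1.2.12, rounded to 2 decimals. The FPKM of all 18 libraries were used as deposited. Read counts, which the authors' own tests need, were not used here. Genes averaging 0.5 FPKM or more in the libraries compared were tested on log2(FPKM + 1) with limma 3.58.1 (lmFit, eBayes with trend) in R 4.3.3, with Benjamini-Hochberg adjustment over all of them. P-values measure the spread between 3 libraries a group, described by the study as biological repeats. Fits were tested on simulated data.

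The 8 genes and all lists were chosen with earlier results of these data known. Genes named besides them are called relatives (at most 3 a list) and nearest paralogues, the 5 genes most alike over 18 libraries, nearest tested neighbours, *Trim33* and gate markers. The result of 1 called relative is not reported here.

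The replicate numbers in the labels were checked as pairs. Deviations of same-numbered libraries from their group means correlated at 0.437, 0.671 and 0.790 in CDPs and 0.400, 0.329 and 0.131 in CLPs. They correlated at 0.138, 0.378 and 0.354 between WT MPPs and WT CDPs, and 0.038, 0.482 and 0.472 in MPPs. The numbers were taken to pair libraries where every such correlation was over 0.1, that is everywhere except in MPPs. Differently numbered libraries reached 0.663 in CDPs, 0.234 in CLPs, 0.170 between WT MPPs and WT CDPs, and 0.262 in MPPs. Each of these is above the lowest same-numbered value, although each WT CDP library correlated best with the KO library of its own number. The pairing is thus uncertain, and so are the calls that need the block.

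Depth was estimated from FPKM steps of genes with 1 transcript in GENCODE M21, and positions and promoters were taken from RefSeq GRCm38.p6, where 99.7% of Entrez identifiers matched. Alternatives were a pseudocount of 0.1, no filter, a filter at 2 FPKM, TPM, median ratio scaling, no trend, the block, and each library left out. The block without a filter was added after seeing the data. Other tools were pandas 2.3.3, numpy 2.4.6 and scipy 1.17.1 in Python 3.11.15.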

Additional observations from a re-analysis of the deposited data

Results flagged for a closer look

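*Lrrc16a* was singled out because its KO minus WT difference was not the same in CD115- CDPs and MPPs: the contrast of the 2 log2 differences was -1.96 (SE 0.27, limma adjusted p = 0.0128), with every KO CDP library below every WT CDP library and overlapping MPP libraries. At a mean of 0.76 FPKM in WT MPPs, *Lrrc16a* could not fall there by a log2 difference of 1 on log2(FPKM + 1).

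*Atp1b1* was singled out because every MPP library labelled KO was above every WT MPP library (log2 difference 0.23), while every KO library was below every WT library in CD115- CDPs (-1.41) and in CLPs (-3.04). The contrast of CDPs and MPPs was -1.65 (limma adjusted p = 0.0502), and the difference between MPPs and CLPs was not tested because the CLP libraries chose the gene.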

How the results depend on the processing

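In CD115- CDPs 1 of the 8 genes was called lower, and 5 with the replicate block, 0 without a filter, 0 with a filter at 2 FPKM, 0 with the block and no filter together, and 0 to 0 with each library left out. The contrast of CDPs and MPPs, passed by 1 gene, was passed by 0 with a pseudocount of 0.1, 2 without a filter, 0 with a filter at 2 FPKM (which kept 2 of the 8 genes), 2 without a trend, 2 with the replicate block, and 0 to 2 with each library left out. Between WT CDPs and WT MPPs 3 genes were called higher, 1 with the block and no filter, and 2 to 4 with each library left out. In MPPs 0 were called under every alternative. On log2(FPKM + 1) no call of a fall was possible there for *Ddr1*, *Cdh5*, *Pltp*, *Upb1*, *Adam19* and *Lrrc16a*, whose WT means were under 1 FPKM. Without a filter *Pltp* had a limma adjusted p of 0.012 at a difference of -0.52 (0.128 with the block too). With the block *Ptms* had an adjusted p of 0.0395 at a difference of -0.70, also under the fold threshold. Same-numbered MPP libraries share only a number, since 1 pair correlated at 0.038, and not every library correlated best with its own number there or in CLPs. In MPPs the block left the count of all genes called lower at 163. The block changed no other call of the 8 genes. The median difference in CLPs was -3.62, -5.56 with a pseudocount of 0.1, -4.36 on TPM, and -3.70 to -3.54 with each library left out. No direction reversed. Of the values of single genes under alternatives, 288 stayed on their side of the threshold, 14 newly passed and 19 no longer passed.

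Over all genes, 8 were called lower and 5 higher in CDPs, 178 and 46 with the block, 4 and 2 without a filter, and 0 and 0 with both. In MPPs 163 were called lower and 20 higher, 548 and 368 without KO MPP replicate 3, 43 to 47 lower without any 1 WT library, 87 lower without KO MPP replicate 2, 245 with a pseudocount of 0.1, 266 on TPM, and 0 with the block and no filter. Between WT CDPs and WT MPPs 602 were lower and 184 higher, 1016 and 675 without WT CDP replicate 3, and 122 and 20 with the block and no filter. Median ratio scaling moved the median of all genes from -0.11 to -0.01 in MPPs and from -0.11 to 0.00 between WT CDPs and WT MPPs, and TPM moved it from -0.07 to -0.19 in CDPs. The depth limits *Ddr1* and *Pltp* in KO CLPs and most of the 8 genes in MPPs, where values rest on few reads.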
